A study of Mus musculus with 8 samples.

Results

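The cadherins and catenins of the adherens junction were followed in RNA-seq data of bipotential mouse embryonic liver (BMEL) cells, a cell line from embryonic mouse liver that can take on hepatocyte or cholangiocyte features. The genes were chosen by symbol, as the cadherins Cdh1, Cdh2, Cdh3 and Cdh6 and the catenins Ctnna1, Ctnnb1 and Ctnnd1, and all 7 were among the 18671 genes of the deposited table. The GRHL2 group comprised 4 samples transfected with a plasmid for the GRHL2 cDNA fused to a Flag tag, and the pcDNA3 group comprised 4 samples transfected with the pcDNA3 vector, each numbered as replicates 1 to 4. All 8 samples were harvested 48 h after transfection, and the comparison asks which genes respond to GRHL2, an epithelial transcription factor (TF). According to the methods, the GRHL2 construct carries the human cDNA under the EEF1A1 promoter and is bicistronic with enhanced green fluorescent protein, and pcDNA3 is therefore not matched to it in promoter or marker. All cells were grown on collagen in medium with serum, insulin, IGFII and mouse EGF. RNA came from whole transfected cultures, in which fewer cells with a transcript and less transcript per cell cannot be told apart.

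Classical cadherins are transmembrane proteins that bind cadherins of the neighbouring cell through calcium-dependent contacts. Their cytoplasmic tail holds p120-catenin (Ctnnd1), which keeps the cadherin at the membrane, and β-catenin (Ctnnb1), which in turn holds α-catenin (Ctnna1), the link to the actin cytoskeleton. E-cadherin (Cdh1) is typical of epithelia and N-cadherin (Cdh2) of mesenchymal and neural cells, and a shift from the former to the latter is a hallmark of epithelial–mesenchymal transition. Hepatocytes are known to carry both, and GRHL2 is known as an activator of Cdh1 in epithelia.

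The deposited values are on a log2 scale and were read as regularized log (rlog) values of DESeq2 less the log2 of transcript length, so that a level compares genes per length and a difference between samples is a difference of rlog values. The rlog shrinks differences of genes with few reads, and the depth of each sample cannot be read from such values. Mouse Grhl2 lay between 4.42 and 4.68 in the pcDNA3 samples and between 5.65 and 6.96 in the GRHL2 samples, with no overlap. As the plasmid holds the human cDNA and reads were mapped to the mouse genome, this row is no measure of the plasmid transcript. Whether its reads came from the mouse gene or from the plasmid was not tested. The 10 epithelial, hepatoblast and biliary markers all had mean values of at least 5.22, led by Krt8, whereas the endothelial markers in the table (5 of 6) lay between 1.24 and 3.29, and the blood and macrophage markers (4 of 6) between 0.80 and 6.17, the highest being Cd68. Over all genes, limma (Benjamini-Hochberg adjustment over 18671 genes, adjusted p under 0.05) called 1957 genes higher and 1104 lower in the GRHL2 samples, or 16.4% of genes in either direction, 10.5% higher and 5.91% lower. Higher genes made up 63.9% of these calls, or 75.9%, 77.0% and 47.1% with samples set to an equal upper quartile, an equal sum and an equal median. With a mean value of at least 5 required, 10973 genes were tested, and 715 were called higher and 899 lower. Higher genes were then 44.3% of the calls.

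GRHL2 samples had more E-cadherin and p120-catenin transcripts than control samples, by 22.1% and 15.3% on the rlog scale. The other 5 genes did not pass the test over all genes. Thus 2 of the 7 genes were called, both higher, beside 10.5% of all genes called higher. With the 8 samples left out in turn, from 0 to 2 of the 7 were called, and Ctnnd1 lost its call in 7 of these fits. Replicate number was a large part of the spread, since same-numbered samples deviated together, and with the replicate number as a block limma called 4 of the 7, with Cdh1, Ctnnb1 and Ctnnd1 higher and Cdh2 lower, beside 32.1% of all genes (18.2% higher and 13.9% lower). In the same 3 genes all 4 same-numbered differences were above 0, as in 27.3% of all genes.

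**Figure D1:**
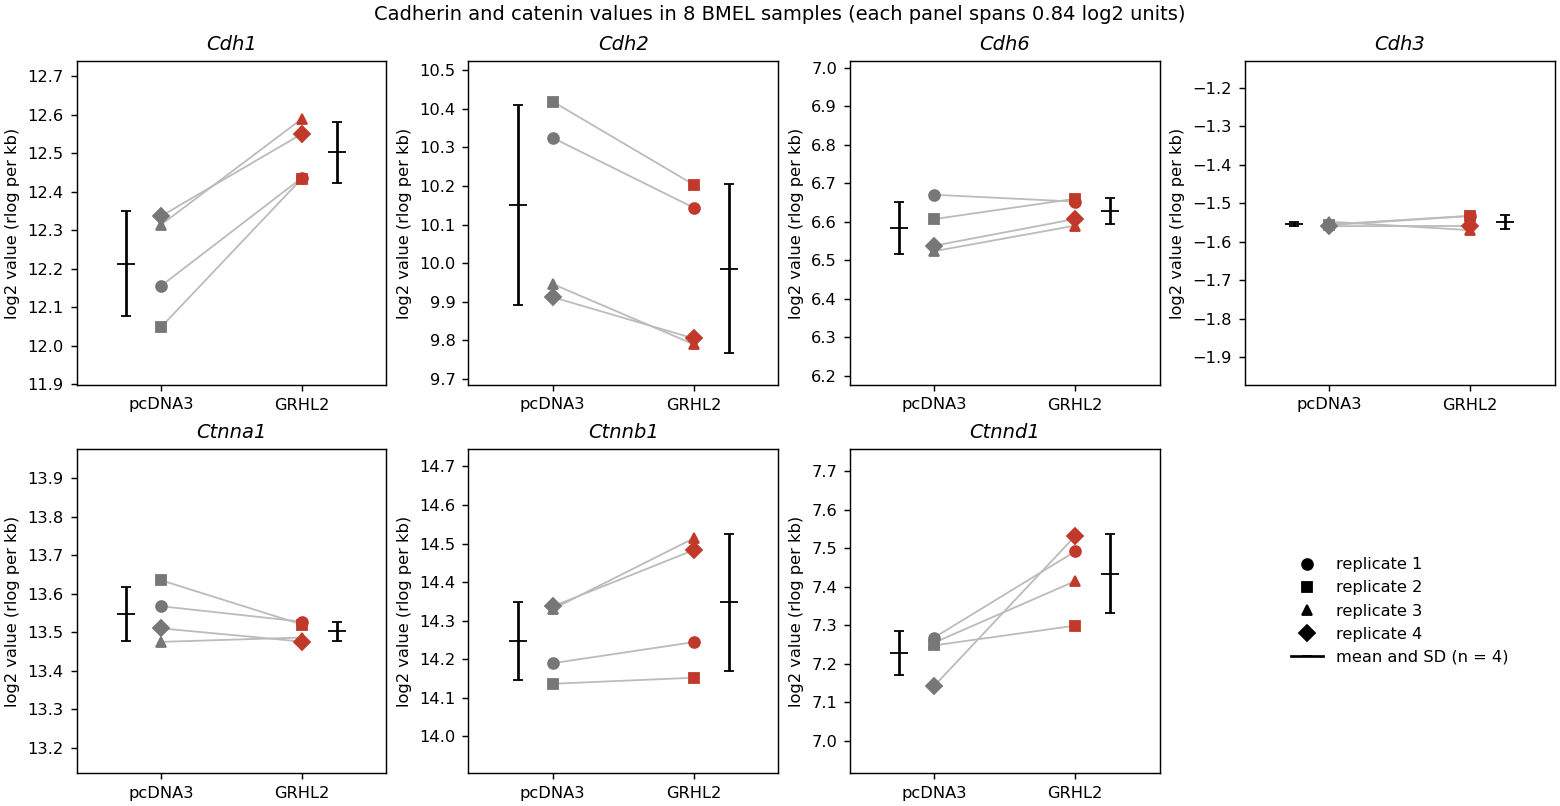
Log2 values (rlog per kb of transcript, y axis) of the 7 genes in pcDNA3 samples (grey) and GRHL2 samples (red), with a symbol per replicate number, lines joining same-numbered samples, and bars for mean ± SD (n = 4). All 4 lines rise for Cdh1, Ctnnb1 and Ctnnd1 and all 4 fall for Cdh2, whereas only Cdh1 and Ctnnd1 have groups that do not overlap.

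Cdh1 (ENSMUSG00000000303, GRCm38 chr8:106603351-106670246, plus strand) was the most abundant of the 4 cadherins. Its values were 12.16, 12.05, 12.31 and 12.34 in pcDNA3 replicates 1 to 4 and 12.44, 12.43, 12.59 and 12.55 in GRHL2 replicates 1 to 4. Every GRHL2 sample was above every pcDNA3 sample, and replicates 1 and 2 were the lower samples in each group. The means were 12.21 ± 0.14 (SD, n = 4) and 12.50 ± 0.079 (SD, n = 4), which gives a log2 fold change of 0.29 (standard error 0.070, 95% interval 0.13 to 0.44, limma adjusted p = 0.0199). For this single gene the exact two-sided permutation p was 0.0286, the smallest that 70 divisions allow. The same-numbered differences were 0.28, 0.39, 0.28 and 0.21, with a mean of 0.33 in replicates 1 and 2 and of 0.24 in replicates 3 and 4. The limma adjusted p rose to 0.0618 without pcDNA3 replicate 1, 0.0564 without GRHL2 replicate 3, 0.0526 without GRHL2 replicate 4 and 0.0536 with replicates 3 and 4 averaged.

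Cdh2 (ENSMUSG00000024304, GRCm38 chr18:16588877-16809246, minus strand) moved the other way in each same-numbered pair, by less than its spread within a group. Its values were 10.32, 10.42, 9.95 and 9.91 in pcDNA3 replicates 1 to 4 and 10.14, 10.20, 9.79 and 9.80 in GRHL2 replicates 1 to 4. The groups overlapped, because replicates 1 and 2 were the higher samples in each group. Replicates 1 and 2 exceeded replicates 3 and 4 by 0.44 in the pcDNA3 samples and by 0.38 in the GRHL2 samples, more than the difference between the groups. The log2 fold change of -0.16 (standard error 0.14, 95% interval -0.47 to 0.14) had a limma adjusted p of 0.459. With the replicate block the standard error was 0.034, the 95% interval -0.24 to -0.087 and the limma adjusted p 0.00709. The same-numbered differences were -0.18, -0.22, -0.16 and -0.11, and 21.3% of all genes had 4 same-numbered differences below 0.

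Some markers of epithelial and mesenchymal cells also differed between the groups, beside 16.4% of all genes called. Of the 10 epithelial, hepatoblast and biliary markers, Epcam (1.75, adjusted p = 4.59e-07) and Krt7 (0.44, adjusted p = 0.00201) rose and Afp fell by 0.21 (limma adjusted p = 0.0124), while the other 7, among them Krt8, Krt18 and Hnf4a, did not pass. The summed level of the 10 (log2) was from 16.66 to 16.85 in pcDNA3 samples and from 16.85 to 17.01 in GRHL2 samples, just short of overlap. Of 8 mesenchymal and stellate markers, 5 were in the table, and their summed level (log2) ran from 15.23 to 15.39 in pcDNA3 samples and from 14.88 to 15.00 in GRHL2 samples, with no overlap. Nearly all of it came from Vim, the intermediate filament vimentin, which fell by 0.37 (limma adjusted p = 0.000614), while Pdgfrb, which rose by 0.11 (limma adjusted p = 0.00886), had a mean of only -0.23 in pcDNA3 samples. Acta2, Des and Col1a1 (-0.013, -0.033 and 0.13) did not pass. The part of these markers in the Cdh2 and Cdh1 differences was not tested.

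The balance of the classical cadherins was taken in each sample as the level of Cdh1 less that of Cdh2, in which the scaling of a sample cancels. It was 1.83, 1.63, 2.37 and 2.42 in pcDNA3 replicates 1 to 4 and 2.29, 2.23, 2.80 and 2.75 in GRHL2 replicates 1 to 4. Cdh1 was the higher gene in all 8 samples, and the balance was further towards Cdh1 in the GRHL2 sample of each pair, although GRHL2 replicates 1 and 2 lay below pcDNA3 replicates 3 and 4. The group means were 2.06 ± 0.39 (SD, n = 4) and 2.52 ± 0.30 (SD, n = 4), or a Cdh1 to Cdh2 ratio of 4.18 in pcDNA3 and 5.72 in GRHL2 samples on the linear scale per length. Their difference of 0.45 was larger than the SD of either group, but the groups of 4 samples overlapped. The exact two-sided permutation test, which takes no account of the pairs, gave p = 0.171. Within pairs, the difference was 0.46, 0.60, 0.43 and 0.32, a mean of 0.45 ± 0.12 (SD of 4 pairs), and exact two-sided sign flips within the pairs gave p = 0.125, the smallest that 4 pairs allow. In the pcDNA3 samples the balance of replicates 3 and 4 exceeded that of replicates 1 and 2 by 0.67, and in the GRHL2 samples by 0.51. The mean difference between the groups was 0.53 within replicates 1 and 2 and 0.38 within replicates 3 and 4.

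On the linear scale, Cdh1 made up 76.7%, 74.3%, 82.5% and 83.0% of the summed level of the 4 cadherins in pcDNA3 replicates 1 to 4, and 81.8%, 81.2%, 86.3% and 85.8% in GRHL2 replicates 1 to 4. The share was higher in the GRHL2 sample of every pair, by 2.76 to 6.93 percentage points, but pcDNA3 replicates 3 and 4 lay above GRHL2 replicates 1 and 2 (p = 0.171 in the exact two-sided permutation test). The level of the 4 cadherins less that of the 3 catenins (log2 of linear sums) was -2.38, -2.44, -2.38 and -2.38 in pcDNA3 replicates 1 to 4, and -2.21, -2.14, -2.29 and -2.30 in GRHL2 replicates 1 to 4. Here the groups did not overlap, with a difference of 0.16 (p = 0.0286 in the exact two-sided permutation test). As Cdh1 made up most of the cadherin sum in every sample, this result is not separate from the Cdh1 difference. Without pcDNA3 replicate 2 the difference was 0.14 and the exact permutation p 0.0571, and sign flips within the pairs gave an exact p of 0.125, the smallest possible. The difference was 0.23 within replicates 1 and 2 and 0.084 within replicates 3 and 4.

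**Figure D2:**
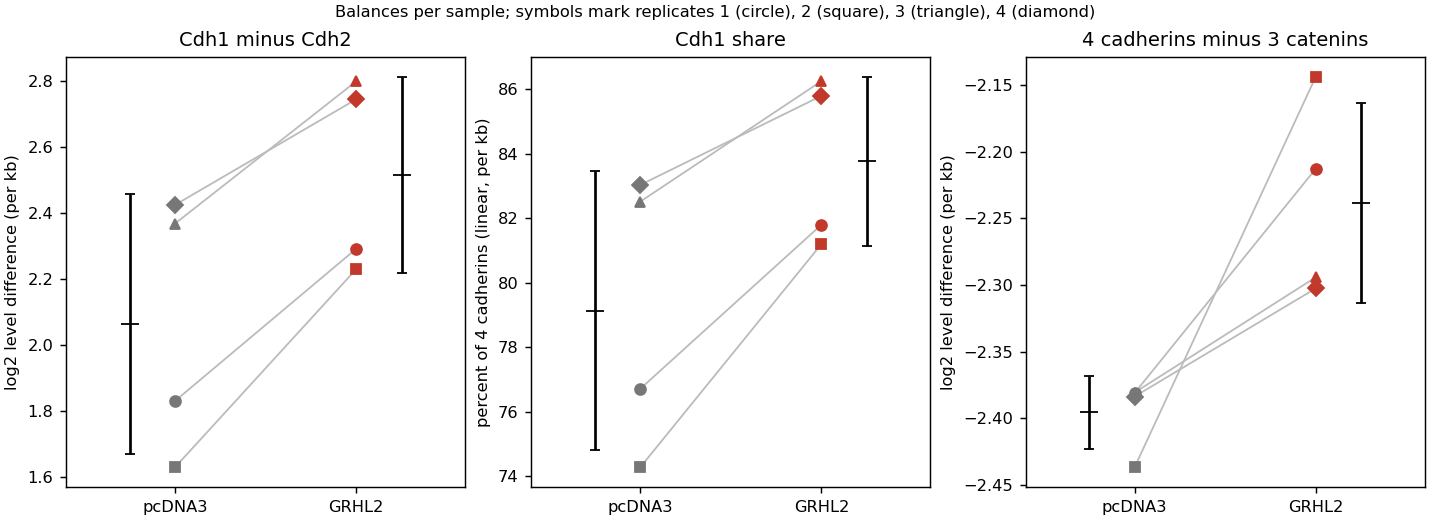
Per-sample balances in pcDNA3 (grey) and GRHL2 (red) samples, with lines joining same-numbered samples and bars for mean ± SD (n = 4). The left panel gives Cdh1 minus Cdh2 (log2 level per kb), the middle panel the percent of the 4 summed cadherins that is Cdh1, and the right panel the 4 cadherins minus the 3 catenins (log2). The first 2 balances rise in all 4 pairs but overlap between groups, and the groups are apart in the right panel.

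Cdh6, encoding kidney cadherin (K-cadherin), a type II cadherin (ENSMUSG00000039385, GRCm38 chr15:13028701-13173675, minus strand), was at an intermediate level. It ran from 6.52 to 6.67 in pcDNA3 samples and from 6.59 to 6.66 in GRHL2 samples. The groups overlapped, and the log2 fold change was 0.043 (95% interval -0.059 to 0.14, limma adjusted p = 0.574). Cdh3, encoding P-cadherin (ENSMUSG00000061048, GRCm38 chr8:106510891-106557297, plus strand), lies 46.1 kb upstream of Cdh1 on the same strand. Whereas Cdh1 was higher than 98.3% of all genes, Cdh3 was among the lowest genes listed, from -1.56 to -1.55 in pcDNA3 samples and from -1.57 to -1.53 in GRHL2 samples, and higher than 0.370% of genes. Its difference of 0.0061 (95% interval -0.014 to 0.027, limma adjusted p = 0.701) changed sign with an equal median and within replicates 3 and 4, and at such values the rlog leaves little of any difference.

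Among the catenins, Ctnnd1, the p120-catenin gene (ENSMUSG00000034101, GRCm38 chr2:84600071-84650765, minus strand), was called higher. Its values were 7.27, 7.25, 7.25 and 7.14 in pcDNA3 replicates 1 to 4 and 7.49, 7.30, 7.41 and 7.53 in GRHL2 replicates 1 to 4. The groups did not overlap, but GRHL2 replicate 2 lay only 0.051 above its pcDNA3 partner, against 0.39 for replicate 4. The log2 fold change was 0.21 (standard error 0.059, 95% interval 0.075 to 0.34, limma adjusted p = 0.0393). The call was lost with an equal median (0.18, limma adjusted p = 0.0867) and with replicates 3 and 4 averaged (0.18, limma adjusted p = 0.127). Of all genes, 23.8% had groups that did not overlap (14.3% higher and 9.47% lower in GRHL2 samples), and Cdh1 and Ctnnd1 were the 2 of the 7 genes that did so. The adjusted p of Ctnnd1 was 0.0144 without GRHL2 replicate 2 and between 0.0658 and 0.0995 without any one of the other 7 samples, and its difference was 0.14 within replicates 1 and 2 (limma adjusted p = 0.345) and 0.27 within replicates 3 and 4 (limma adjusted p = 0.0261). In GENCODE M21, 61.2% of the exonic bases of Ctnnd1 are shared with the read-through model Gm28635 on the same strand, which is not among the genes of the table. As HTSeq in union mode leaves out reads that lie on more than 1 gene, the level of Ctnnd1 may hold part of its reads only.

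Ctnnb1, the β-catenin gene (ENSMUSG00000006932, GRCm38 chr9:120929216-120960507, plus strand), had the highest level of the 7 genes. Its values were 14.19, 14.14, 14.33 and 14.34 in pcDNA3 replicates 1 to 4 and 14.24, 14.15, 14.51 and 14.48 in GRHL2 replicates 1 to 4. The groups overlapped, as replicates 1 and 2 were the lower samples in each. The log2 fold change was 0.10 (standard error 0.084, 95% interval -0.088 to 0.29, limma adjusted p = 0.464), and with the replicate block the standard error was 0.031 and the limma adjusted p 0.0370. The same-numbered differences were 0.055, 0.016, 0.18 and 0.15, so that the mean was 0.035 within replicates 1 and 2 and 0.16 within replicates 3 and 4 (limma adjusted p = 0.00286). Of its exonic bases, 14.6% overlap Ulk4 on the other strand, and counting was not strand-aware. Ctnna1, the αE-catenin gene (ENSMUSG00000037815, GRCm38 chr18:35118859-35254779, plus strand), ran from 13.48 to 13.64 in pcDNA3 samples and from 13.48 to 13.53 in GRHL2 samples. Its log2 fold change was -0.044 (95% interval -0.14 to 0.047, limma adjusted p = 0.506).

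**Figure D3:**
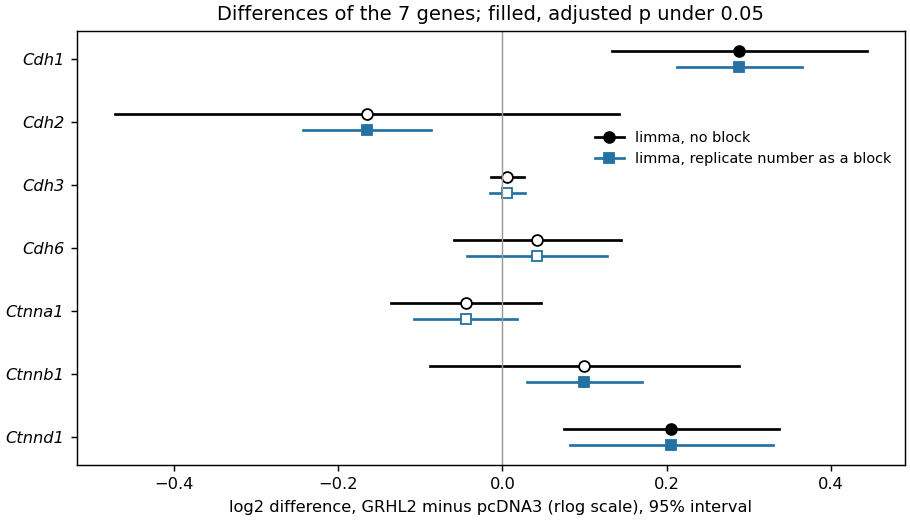
Log2 difference (GRHL2 minus pcDNA3, rlog scale, x axis) of each gene with its 95% interval from limma, without a block (black circles) and with the replicate number as a block (blue squares). Filled symbols passed an adjusted p of 0.05 over all genes. The interval of Cdh2 narrows from between -0.47 and 0.14 to between -0.24 and -0.087.

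Sequence before a RefSeq transcript start is shown for the catenins whose adjusted p passed in either fit and whose start is in the promoter table (RefSeq, GRCm38.p6). Entries were matched by symbol for Ctnnd1, Ctnnb1 and Cdh6. The stretches run 5′ to 3′ on the strand of the gene and hold no base of an exon of the gene in GENCODE M21. The Ctnnb1 stretch is the 250 bases before a RefSeq start, and the Ctnnd1 stretch is 225 bases, as the 25 bases next to the RefSeq start are exonic in GENCODE M21 and were left out. The Ctnnb1 stretch lies inside the gene as GENCODE M21 bounds it, since the gene begins further upstream there, at 120929216. The Ctnnd1 entry has a further start upstream, and the Ctnnb1 entry one downstream. Capitals mark CCAAT on either strand (ATTGG when on the other strand), the letters of a common promoter element:
Ctnnd1 chr2:84650766-84650990, minus strand: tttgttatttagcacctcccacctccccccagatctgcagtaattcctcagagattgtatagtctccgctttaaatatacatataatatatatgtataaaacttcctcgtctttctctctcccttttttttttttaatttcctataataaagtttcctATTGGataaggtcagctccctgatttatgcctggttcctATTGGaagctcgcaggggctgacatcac
Ctnnb1 chr9:120933150-120933399, plus strand: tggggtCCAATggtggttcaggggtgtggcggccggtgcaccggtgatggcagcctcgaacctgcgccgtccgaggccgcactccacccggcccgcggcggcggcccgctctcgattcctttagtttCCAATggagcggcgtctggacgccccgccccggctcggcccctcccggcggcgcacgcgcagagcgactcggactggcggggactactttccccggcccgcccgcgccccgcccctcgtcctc

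The Ctnnd1 stretch has 38.2% G and C, and the Ctnnb1 stretch 74.8%, while the window of the further Ctnnd1 start upstream has 66.8%. Each printed stretch holds 2 CCAAT letters, which 33.9% of the 32841 windows of 250 bases in that table, longer than the Ctnnd1 stretch, hold at least once. The Grainyhead palindrome AACCGGTT, its looser form AACCNGTT and the letters CAGGTG, an E-box read by Snail and ZEB factors, were searched on both strands (every AACCGGTT is also an AACCNGTT). None of the 3 was found in either stretch or in the windows of the other starts and of Cdh6, and 0.116%, 1.79% and 17.2% of all windows hold them, so that an absence is the usual case and says only that these letters are not in these stretches.

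Per length, the order of mean levels over the 8 samples was Ctnnb1 (14.30), Ctnna1 (13.52), Cdh1 (12.36), Cdh2 (10.07), Ctnnd1 (7.33), Cdh6 (6.61) and Cdh3 (-1.55). Each neighbour in this order was separated from the next in all 8 samples, the smallest mean gaps being those of Ctnnd1 over Cdh6 (0.73 ± 0.12, SD over 8 samples) and of Ctnnb1 over Ctnna1 (0.77 ± 0.19, SD over 8 samples). The order rests on the lengths used. Ctnna1 has 11 transcripts of 1.30 kb on average in GENCODE M21 and Cdh1 has 3 of 2.81 kb, and with the log2 of these lengths added to the level, Ctnna1 (13.91) and Cdh1 (13.85) overlapped between samples. The authors took lengths from GRCm39, so these sums only approximate levels without length. For a single gene, and for Cdh1 less Cdh2, the difference between the groups does not depend on length, whereas the Cdh1 share and the cadherins less the catenins are sums of levels per length and do.

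Other genes around the junction were taken in lists and described by their counts, which stand beside 10.5% of all genes called higher and 5.91% lower, or 18.2% and 13.9% with the replicate block. Of the other cadherins, 15 of 21 were in the table, and 4 rose and none fell (limma), and their median difference was 0.038, that of all genes being 0.0066. Those that rose were Cdh24 (0.36, adjusted p = 0.000410), a type II cadherin, Cdh13 (0.30, adjusted p = 0.0242), the lipid-anchored T-cadherin, Cdh22 (0.20, adjusted p = 0.000163) and Cdh23 (0.10, adjusted p = 0.00151). Cdh22 and Cdh23 were at low levels, with pcDNA3 means of 1.40 and 0.35. Of the further catenins and armadillo proteins of junctions, 5 of 7 were in the table, and 2 rose. Jup, encoding plakoglobin, which can take the place of β-catenin on the cadherin tail, had values of 11.71, 11.60, 11.84 and 11.92 in pcDNA3 replicates 1 to 4 and 12.03, 12.02, 12.22 and 12.21 in GRHL2 replicates 1 to 4. Its groups did not overlap (log2 fold change 0.35, limma adjusted p = 0.0134), and neither did those of Ctnnal1, the α-catulin gene (0.32, adjusted p = 0.00893).

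All 6 nectins and afadin genes were in the table. Nectin1, an immunoglobulin-type adhesion receptor of the junction, had the largest change among the listed genes, with 6.18 ± 0.10 (SD, n = 4) in pcDNA3 and 6.76 ± 0.093 (SD, n = 4) in GRHL2 samples and thus a difference of 0.57 (standard error 0.064, limma adjusted p = 0.000460). It was the 1 gene of this list that passed, and with the replicate block 2 rose and 2 fell. Afdn, the afadin gene that links nectins to actin, had a log2 fold change of -0.19 (limma adjusted p = 0.274), and its adjusted p was 0.0105 under the block. Among the 14 cytoplasmic linkers, Camsap3 (0.20, adjusted p = 0.0385) and Plekha7 (0.15, adjusted p = 0.0407), which tether microtubule ends to the p120-catenin complex, rose and none fell (limma), and neither passed with an equal median. With the replicate block 3 of the 14 linkers rose and 2 fell, a share near the 32.1% of all genes called in that fit. Vcl, the vinculin gene, had a log2 fold change of -0.014 (limma adjusted p = 0.887). Of 10 genes of cadherin turnover and cleavage, Adam15, a membrane metalloprotease gene (0.45, adjusted p = 0.00124), and Rab11a, of the recycling endosome (0.25, adjusted p = 0.0276), rose, and Cbll1 fell by 0.26 (limma adjusted p = 0.0446), the gene of Hakai, a ubiquitin ligase known to target E-cadherin. With the replicate block 2 rose and 3 fell.

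Of 8 known repressors of Cdh1, all in the table, 2 fell and none rose (limma), while the list's median was -0.0040. Zeb1 had a mean of 8.31 ± 0.11 (SD, n = 4) in pcDNA3 and 7.99 ± 0.096 (SD, n = 4) in GRHL2 samples and fell by 0.32 (limma adjusted p = 0.0125). Snai2 fell by 0.34 (limma adjusted p = 0.0175) between means of 5.65 ± 0.16 and 5.32 ± 0.087 (SD, n = 4 each). In both, all GRHL2 samples were below all pcDNA3 samples. Zeb2, named after its values were seen, had a log2 fold change of -0.35, with a limma adjusted p of 0.184 that was 0.000428 under the block, where 3 repressors fell and 1 rose. Snai1 was near 1.56 in each group, with a difference of -0.00088 (limma adjusted p = 0.985).

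Ctnnb1 also acts in Wnt signalling as the partner of TCF and LEF factors. Of 15 genes of its destruction complex and nuclear partners, 5 rose and none fell (limma), with a median of 0.045. The largest changes were those of the transcription partners Tcf7l1 (0.46, adjusted p = 0.000236), Lef1 (0.38, adjusted p = 0.000108) and Tcf7 (0.37, adjusted p = 0.00692) and of the feedback inhibitor Axin2 (0.37, adjusted p = 0.00147). Of 11 β-catenin target genes, 10 were in the table, and 6 rose and none fell (limma), with a median of 0.18. This list shares Axin2, Lef1 and Tcf7 with the former. Besides them, Notum rose by 0.22 (limma adjusted p = 0.000361), from a pcDNA3 mean of 2.44 ± 0.0051 (SD, n = 4). Besides Tcf7, the targets that rose had mean values under 5, and with a mean value of at least 5 required only 1 target, Tcf7, was called.

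**Figure D4:**
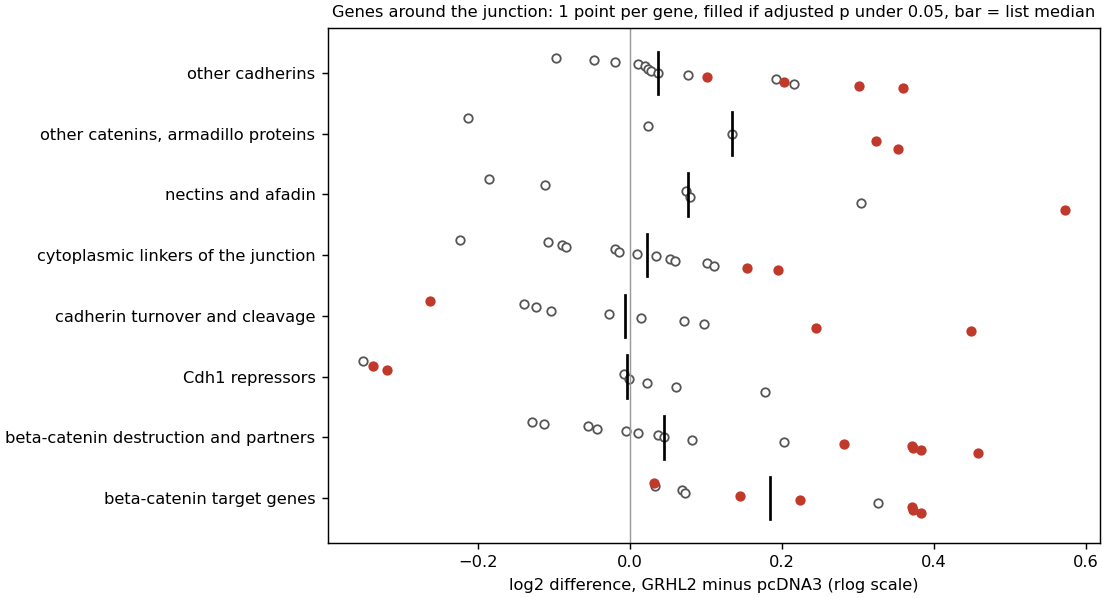
Log2 difference (GRHL2 minus pcDNA3, rlog scale, x axis) of each gene in 8 lists around the junction. Filled points passed limma at an adjusted p under 0.05, and the bar is the list's median, which lies between -0.0066 for cadherin turnover and 0.18 for the β-catenin targets, against 0.0066 for all genes.

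The genes most like each member over the 8 samples were found by Pearson's r among genes with a mean value of at least 0, as a description of samples that share group and replicate number. Cdh1 was closest to Sdc1 (r = 0.997), the syndecan-1 gene, Lpcat4 (0.993) and Tmem51 (0.993), and Cdh2 to Dusp1 (0.995), Sorbs2 (0.994) and Naa25 (0.991). Ctnnb1 was closest to Nnt (0.995), Rbbp9 (0.990) and Mylk (0.990), and Ctnna1 to Dst (0.989). An r above 0.95 was reached by 197 genes for Cdh1, 227 for Cdh2 and 230 for Ctnnb1, but by only 67 for Ctnna1, 6 for Ctnnd1, 4 for Cdh6 and 3 for Cdh3.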

How the data were processed

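RNA-seq values of 8 BMEL samples were taken from the deposited table, with groups and replicate numbers from the sample titles. Per the methods, which open with public data and were assumed to cover these samples, the authors mapped reads to mm10, counted exons without regard to strand, removed genes with few cumulated reads and divided rlog values by transcript lengths (GRCm39). The submitters' processing notes name HISAT2 2.2.1, HTSeq 0.9.1 and DESeq2 1.40.2. The table is named for FPKM, but 4.81% of values are below 0 (range -2.85 to 18.01), so the deposited values were used as log2 values, with no pseudocount and no filter. Depth per sample is unknown, so no counting interval is given.

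Groups were compared with limma 3.58.1 in R 4.3.3 (mean-variance trend, Benjamini-Hochberg over 18671 genes), tested on simulated data first. There it recovered 37 of 100 changes of 0.25 and 87 of 100 changes of 0.5, with 8 false calls among 18471 unchanged genes. A change of 0.25 or less can thus often fail to pass. Balances were compared with exact permutation tests. The members, lists and tests were chosen with earlier results of these data known. Genes named were the 7 members, Grhl2, up to 4 called genes per list and direction with the largest changes, Jup, Afdn, Vcl, Zeb1, Snai1, Snai2 and Axin2, and the 3 genes most like each member, not all of which are reported here. Outside this rule, Zeb2 was named after its values were seen. Markers of the cell type lists and genes that overlap a member were named as well. Same-numbered samples deviated together (Pearson's r across genes 0.474 to 0.645), and each pcDNA3 sample was closest to its own number, which is where the pairing comes from. GRHL2 replicate 3 was closer to pcDNA3 replicate 4 (0.602) than to pcDNA3 replicate 3 (0.549). Different numbers also deviated together within replicates 1 and 2 (0.344 and 0.436) and within replicates 3 and 4 (0.500 and 0.602). Between these 2 sets r was from -0.611 to -0.399, so that the split of replicates 1 and 2 against 3 and 4 makes up much of the agreement. The study names 4 independent biological replicates. Positions are from GENCODE M21 (GRCm38).

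Alternatives were the replicate block, 3 scalings, no trend, robust eBayes, sample weights, minimum mean values of 0 and 5, replicates 1 and 2 or 3 and 4 alone, replicates 3 and 4 averaged, and each sample left out. A term for replicates 1 and 2 against 3 and 4 was added after seeing the data. The remaining experiments of the paper were not analysed here.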

Additional observations from a re-analysis of the deposited data

Results flagged for a closer look

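Among 36 groups of 4 samples (the 7 members, Grhl2, Jup, Afdn, Vcl, Zeb1, Snai1, Snai2, Axin2 and the 3 balances, in each plasmid group), 2 held a sample set apart from the others by more of the range than Dixon's 95% critical value for 4 samples allows, where chance gives about 1 in 20. Ctnnd1 in pcDNA3 replicate 4 was at 7.14, below the other pcDNA3 samples (7.25 to 7.27). The level of the cadherins less that of the catenins was -2.44 in pcDNA3 replicate 2, below the other pcDNA3 samples (-2.38 in each).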

How the results depend on the processing

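With the replicate block, Cdh2 (-0.16) and Ctnnb1 (0.10) passed, Cdh1 and Ctnnd1 passed again (limma adjusted p = 0.000417 and 0.0200), and no other member changed its call. The members called were 4, the genes called 3396 higher and 2589 lower, and the list calls 7 for other cadherins, 4 for nectins and afadin, 5 for linkers, 5 for turnover and 4 for repressors. The term for replicates 1 and 2 against 3 and 4 gave -0.16 for Cdh2 and 0.10 for Ctnnb1, both passing, 4 members, 3270 genes higher and 2478 lower, and 7, 4 (other catenins), 3, 4, 5 and 4 in the lists. An equal upper quartile gave 3064 genes higher, 8 other cadherins, 2 nectins and 4 repressors, and an equal sum 7 other cadherins and 2 nectins. An equal median gave -0.024 for Cdh3, 0.18 for Ctnnd1 (limma adjusted p = 0.0867), 1 member, 1119 genes higher and 0 linkers. Sample weights gave 2 nectins. A mean of at least 5 left 10973 genes tested, with 715 called higher and 899 lower. It left 2 other cadherins, 3 destruction complex genes and 1 target. Replicates 1 and 2 alone gave 0.14 for Ctnnd1, 1 member, 1021 genes higher and 339 lower, 0 linkers and 1 turnover gene. Replicates 3 and 4 alone gave -0.011 for Cdh3, 0.16 for Ctnnb1 (passing), 1667 genes lower, 3 nectins and 5 linkers. Averaging replicates 3 and 4 gave 0.30 for Cdh1 (limma adjusted p = 0.0536), 0.18 for Ctnnd1 (limma adjusted p = 0.127), 0 members, 521 genes lower, 0 linkers and 1 turnover gene. With samples left out in turn, log2 fold changes ran from 0.23 to 0.33 for Cdh1, -0.24 (without pcDNA3 replicate 4) to -0.075 (without pcDNA3 replicate 2) for Cdh2, 0.045 (without GRHL2 replicate 3) to 0.17 (without GRHL2 replicate 2) for Ctnnb1, 0.17 to 0.25 for Ctnnd1, 0.022 to 0.071 for Cdh6 and -0.068 to -0.015 for Ctnna1, the Cdh1 minus Cdh2 balance from 0.31 to 0.57, the Cdh1 share from 3.01 (without pcDNA3 replicate 2) to 5.93 percentage points (without pcDNA3 replicate 4), members called from 0 to 2, genes higher from 1326 to 1848 and lower from 690 to 1036, and the cadherins less the catenins from 0.13 to 0.18. List calls ran from 1 to 2 (nectins, repressors), 0 to 2 (linkers) and 1 to 3 (turnover). The cause of these changes was not tested. No pseudocount was varied, as the values are on a log scale. No depth is known, and the rlog limits what can be seen of Cdh3 and of other low genes.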
